A study of Mus musculus with 8 samples.

Results

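The transcription factor NRF2 (gene Nfe2l2), its inhibitor KEAP1, other regulators of the pathway and a set of its antioxidant targets were examined in RNA-seq libraries made from 2 sorted fractions of the murine breast carcinoma line 4T1. The fractions were separated with magnetic columns by SCA1, a surface protein encoded by Ly6a, giving 4 libraries of 4T1-Sca1+ and 4 of 4T1-Sca1- cells. No drug, genotype or time point differed between the groups in the labels, and neither group was an unsorted control. Parental 4T1 cells are named as the origin by the source label and by the study's text, whereas the protocol speaks of stained tumor and the gate labels call both fractions CD45-. The labels do not say whether the 4 libraries of a group came from separate sorts or cultures, so the p-values below measure only the spread between these libraries, which may be technical. The 10 genes were matched by symbol to the Ensembl identifiers of the count table, and all 10 were found among its 16341 genes. They comprised 4 regulators (Nfe2l2, Keap1, Bach1 and Sqstm1) and 6 targets (Nqo1, Hmox1, Txnrd1, Srxn1, Prdx1 and Txn1). The question was whether the regulators, or only the targets, differed between the fractions.

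In cells without oxidative or electrophilic stress, KEAP1 holds NRF2 in the cytoplasm and presents it to a CUL3 ubiquitin ligase, so that NRF2 is degraded. Electrophiles and oxidants modify cysteines of KEAP1, newly made NRF2 then escapes degradation, enters the nucleus, pairs with small MAF proteins and binds antioxidant response elements (AREs) near its target genes. BACH1, a heme-binding repressor, competes for the same elements, and SQSTM1 (p62), an autophagy receptor, can sequester KEAP1. Because the control of NRF2 acts largely on the protein, its activity cannot be read from the mRNA of Nfe2l2 and Keap1, and no protein was measured here. In many carcinomas the pathway is active and its targets detoxify quinones, regenerate thioredoxin and peroxiredoxins and supply glutathione and NADPH.

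Total counts per library ran from 15041995 to 16968215 in 4T1-Sca1+ and from 13561804 to 16142836 in 4T1-Sca1- cells. Ly6a checked the labels, at 144.6 to 193.3 normalized counts in 4T1-Sca1+ and at most 4.107 in 4T1-Sca1- cells. The summed level of 11 epithelial markers was 61303 to 67590 in 4T1-Sca1+ and 63850 to 69031 in 4T1-Sca1- cells, and Krt5 was the only marker on that list with at most 10 counts in every library. Single epithelial markers moved apart within that sum, with log2 fold changes of -0.69 for Cdh1, -0.62 for Cldn4 and -0.37 for Cldn3 and of 0.31 for Krt8 and 0.38 for Krt18. The 15 leukocyte markers summed to 408.0 to 471.6 against 226.3 to 263.9, with 11 of the 15 at or under 10 counts or not counted, among them Ptprc (CD45), Cd3e, Itgam, Adgre1 and Tyrobp. Cd68, Csf1r, S100a8 and Cd74 made up nearly all of that sum. The 10 fibroblast markers summed to 634.5 to 670.9 against 395.2 to 468.2, of which Pdgfra alone had means of 560.2 and 364.0, and 5 of the 10 were at or under 10 counts or not counted. Col1a1 was also higher (log2 fold change 0.75), as were the total raw counts of Dcn (49 against 4) and Pdgfrb (27 against 1). Fap leaned the other way (4 against 11), and Postn (106 against 92) and Col1a2 (19 against 18) differed little. The 8 endothelial markers summed to 33.82 to 40.89 against 42.30 to 63.92. The leukocyte and fibroblast sums were thus higher in every 4T1-Sca1+ library, and their part in the results below was not tested.

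Regulators and targets both included genes called between the fractions, but so were 61.5% of all genes tested. Of the 10 genes, 7 were higher and 1 was lower in 4T1-Sca1+ cells by edgeR's quasi-likelihood test at an adjusted p under 0.05, and 2 were not called. Among all 11717 genes tested, 31.3% were called higher and 30.2% lower, so that 61.5% were called in either direction. The 4 regulators were all called, all higher, and 4 of the 6 targets were called, 3 of them higher and 1 lower. The libraries of the 2 groups did not overlap for the same 8 genes, against 54.7% of all genes tested. With so large a background share of calls, the size of a change separates the genes better than the call does. Changes of at least 1.5-fold were seen for 3 of the 10 genes (Nqo1, Srxn1 and Nfe2l2) and for 16.15% of all genes tested, and changes of at least 2-fold for 2 (Nqo1 and Srxn1) and 6.111%. The median log2 fold change was 0.28 for the regulators and 0.12 for the targets, beside 0.01 for all genes tested. Regardless of sign, the median change of all genes tested was 0.242, about that of Bach1 (0.24) and Sqstm1 (0.25).

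**Figure D1:**
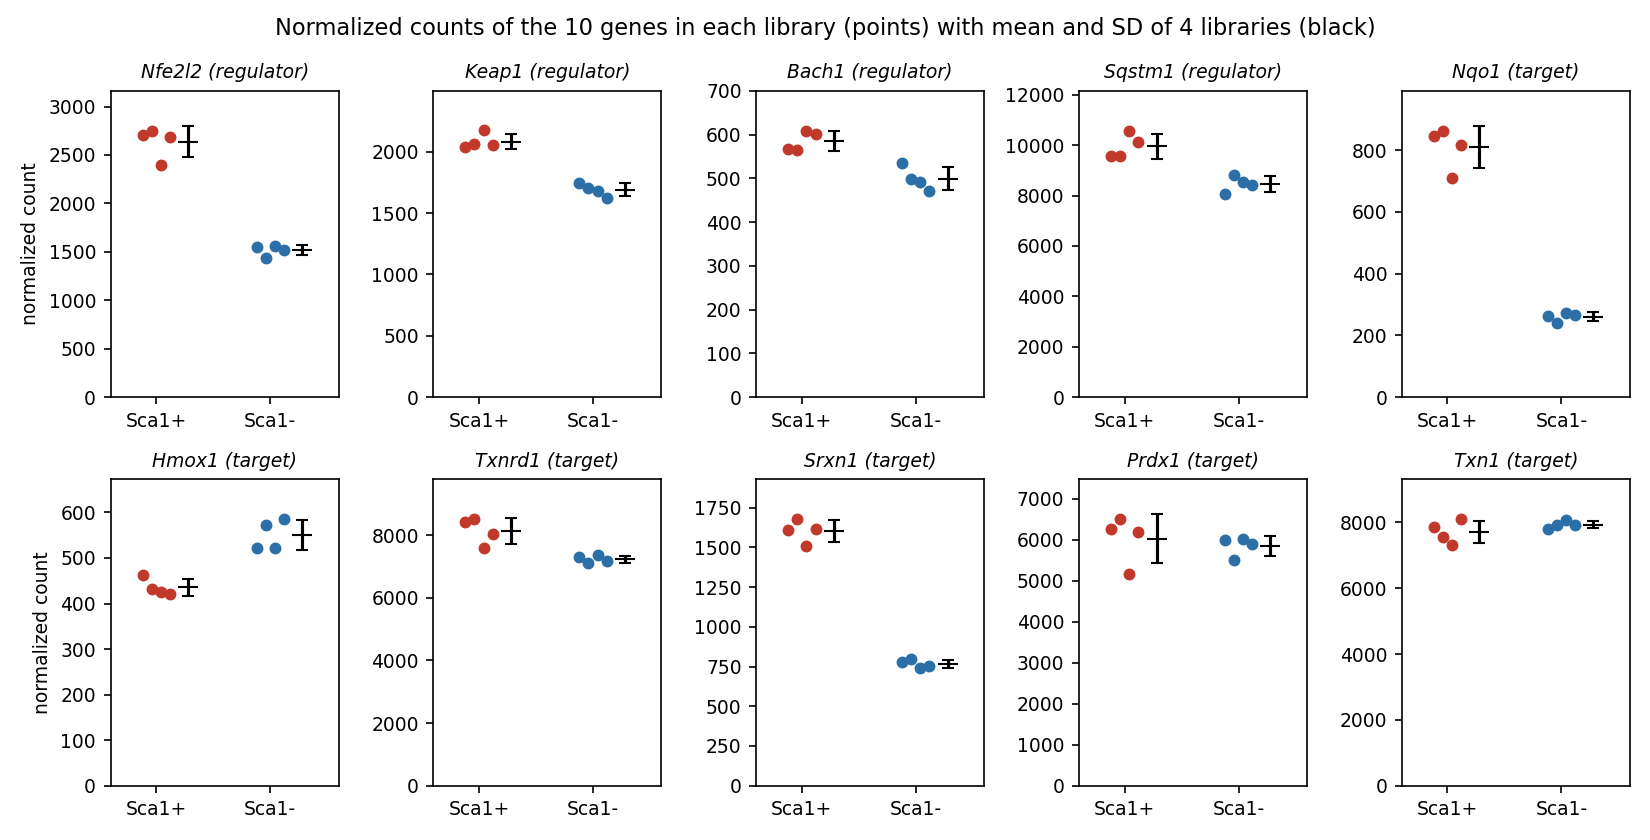
Normalized counts (y axis, from 0) of the 10 genes in each of the 4 4T1-Sca1+ (red) and 4 4T1-Sca1- (blue) libraries, with the mean and SD of each group in black. Nfe2l2, Nqo1 and Srxn1 show wide gaps between the groups, Hmox1 is the gene that was lower in 4T1-Sca1+ cells, and the groups overlap for Prdx1 and Txn1.

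The proximal promoters of the genes are shown for Nfe2l2, Nqo1 and Srxn1, which had the largest changes, and for Prdx1, which holds the same motifs as Srxn1 but was not called. Windows of 300 bases (250 before the start to 50 after) came from RefSeq on GRCm38.p6, where 9 of the 10 genes had at least 1 window (11 in all) and Hmox1 was not matched. Each is written 5′ to 3′ on the strand of the gene, and capitals mark matches on either strand to the ARE core (TGACNNNGC) or the AP-1 site (TGAGTCA).
Nfe2l2, chr2:75704614-75704913, minus strand: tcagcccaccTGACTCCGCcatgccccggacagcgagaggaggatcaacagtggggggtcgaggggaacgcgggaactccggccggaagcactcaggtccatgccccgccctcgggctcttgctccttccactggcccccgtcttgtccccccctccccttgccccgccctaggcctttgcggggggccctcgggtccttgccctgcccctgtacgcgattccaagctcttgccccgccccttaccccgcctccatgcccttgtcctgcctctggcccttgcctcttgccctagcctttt
Nqo1, chr8:107403156-107403455, minus strand: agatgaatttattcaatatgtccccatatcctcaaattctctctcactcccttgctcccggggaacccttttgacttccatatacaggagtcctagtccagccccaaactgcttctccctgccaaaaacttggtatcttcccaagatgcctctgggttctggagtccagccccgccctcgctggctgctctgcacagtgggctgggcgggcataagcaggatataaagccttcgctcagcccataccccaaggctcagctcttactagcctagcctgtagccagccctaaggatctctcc
Srxn1, chr2:152105274-152105573, plus strand: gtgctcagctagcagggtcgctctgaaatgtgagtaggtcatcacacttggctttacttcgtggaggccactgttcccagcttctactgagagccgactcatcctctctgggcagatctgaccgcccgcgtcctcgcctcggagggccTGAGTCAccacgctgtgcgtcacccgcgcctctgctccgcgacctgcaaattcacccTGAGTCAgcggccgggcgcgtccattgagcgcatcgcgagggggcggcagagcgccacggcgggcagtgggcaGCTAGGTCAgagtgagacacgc
Prdx1, chr4:116685349-116685648, plus strand: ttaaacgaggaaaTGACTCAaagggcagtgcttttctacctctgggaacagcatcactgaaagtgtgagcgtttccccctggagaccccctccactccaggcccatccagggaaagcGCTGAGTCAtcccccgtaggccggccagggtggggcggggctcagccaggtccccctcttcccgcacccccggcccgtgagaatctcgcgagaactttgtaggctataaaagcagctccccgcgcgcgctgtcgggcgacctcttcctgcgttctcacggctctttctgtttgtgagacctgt
The ARE core was found in 4 of the 11 windows, in 4 genes, and in 12.39% of all 32851 windows (14.4% of those of tested genes). The AP-1 site was found in 2 of the 11 windows and in 5.202% of all windows (3.91% of those of tested genes). In Nfe2l2 the core TGACTCCGC lay at -240 to -232 from the start. In Srxn1, AP-1 sites lay at -102 to -96 and at -45 to -39, and a core lay on the opposite strand at 29 to 37 after the start. In Prdx1, AP-1 sites lay at -237 to -231 and at -131 to -125, the latter inside a core on the opposite strand (TGACTCAGC, -133 to -125). Txnrd1 held a core in 1 of its 3 windows, at -92 to -84 on the opposite strand. Keap1, Bach1, Sqstm1, Nqo1 and Txn1 had neither set of letters in these windows. Nqo1, with the largest fold change of the 10, had no match in its window, and Prdx1, with 3 matches, was not called. The core was searched by its exact letters alone, so TGAGTCAgc at the AP-1 site from -45 in Srxn1 was not counted as a core. Bases farther from the start were not searched, so a gene without a match here may still hold either motif elsewhere.

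Nfe2l2, which encodes NRF2 itself (ENSMUSG00000015839, GRCm38 chromosome 2, 75675513 to 75704641, minus strand), had normalized counts of 2705, 2752, 2400 and 2689 in 4T1-Sca1+ libraries 1 to 4 and of 1548, 1440, 1556 and 1522 in the 4T1-Sca1- libraries. Every 4T1-Sca1+ library lay above every 4T1-Sca1- library, and 4T1-Sca1+ replicate 3 was the lowest of its group. The means were 2637 ± 160.2 and 1516 ± 53.33 (SD, n = 4 each), and the log2 fold change was 0.81 ± 0.05 (SE), at an adjusted p of 5.1e-10 (edgeR, as for each gene below). This was a 1.755-fold higher level (95% confidence interval 1.627 to 1.893). Among the 4 regulators it was by far the largest change, and the interval did not reach those of the other 3. In bulk libraries, more RNA per cell and a larger share of expressing cells cannot be told apart, here and below.

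Keap1, the substrate adaptor that presents NRF2 for degradation (ENSMUSG00000003308, chromosome 9, 21229730 to 21239361, minus strand), had 2041, 2059, 2172 and 2054 normalized counts in 4T1-Sca1+ and 1749, 1704, 1683 and 1622 in 4T1-Sca1- libraries. The mRNA of the inhibitor was therefore higher in the same fraction as that of NRF2, without overlap of the groups. The difference was 1.242-fold, or 0.31 ± 0.04 (SE) on the log2 scale (adjusted p 9.51e-06). With offsets corrected for GC content the difference shrank to 0.14 (adjusted p 0.00409). Keap1 had the highest transcript GC content of the 10 genes (58.0%), and genes in the high-GC tercile had a median log2 fold change of 0.15, against -0.09 in the low-GC tercile. Keap1 shares 510 exon bases with the antisense gene Gm16754, which the table does not count, and the library kit does not mark strand.

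Bach1, the repressor that competes with NRF2 at its elements (ENSMUSG00000025612, chromosome 16, 87698945 to 87733346, plus strand), had 567.6, 564.1, 609.4 and 600.4 normalized counts in 4T1-Sca1+ and 534.8, 499.0, 490.9 and 471.4 in 4T1-Sca1- libraries. The gap between the nearest libraries of the groups was small. On the log2 scale the difference was 0.24 ± 0.06 (SE, adjusted p 0.00191), or 1.182-fold. A change of that size is common in these libraries, since 50.07% of all genes tested changed by more in either direction.

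Sqstm1, the autophagy receptor p62, which can hold KEAP1 away from NRF2 and is itself an NRF2 target (ENSMUSG00000015837, chromosome 11, 50199366 to 50210827, minus strand), had 9558, 9562, 10579 and 10132 normalized counts in 4T1-Sca1+ and 8056, 8816, 8523 and 8404 in 4T1-Sca1- libraries. The groups again did not overlap. Sqstm1 was 1.189-fold higher (log2 fold change 0.25 ± 0.05, SE, adjusted p 0.000122). Sqstm1 shares 580 exon bases with Mrnip on the opposite strand, which had 850 counts over the 8 libraries.

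**Figure D2:**
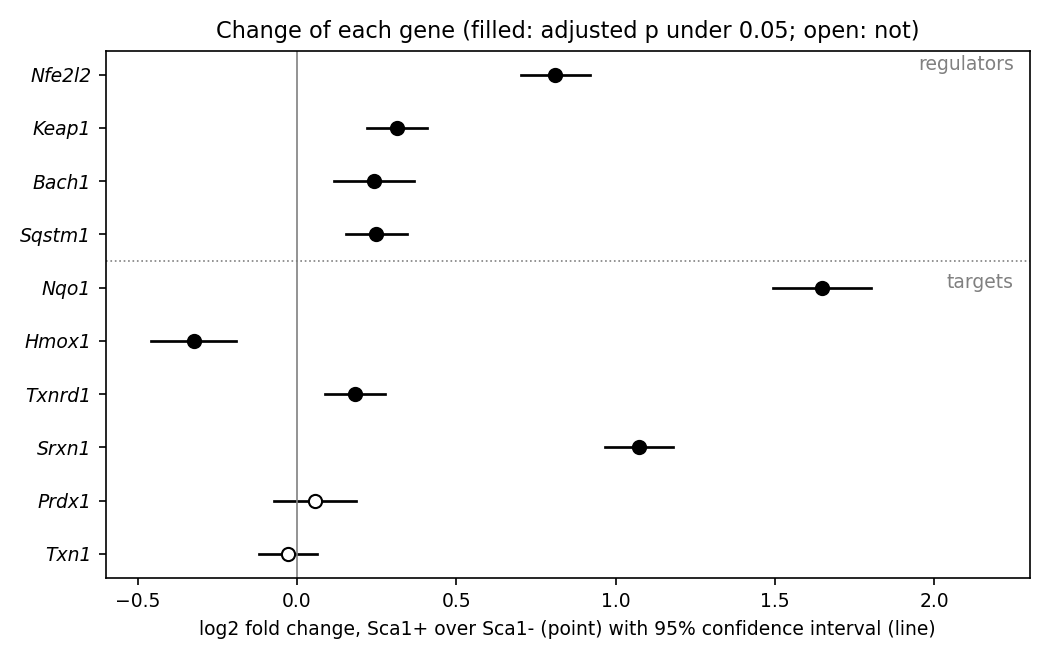
Log2 fold change of 4T1-Sca1+ over 4T1-Sca1- cells (x axis) for the regulators (top) and the targets (bottom), with 95% confidence intervals as lines; filled points passed an adjusted p of 0.05. The regulators lie between 0.24 and 0.81, whereas the targets spread from -0.32 to 1.65.

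Nqo1, the quinone reductase that is a standard readout of NRF2 activity (ENSMUSG00000003849, chromosome 8, 107388225 to 107403206, minus strand), had 846.3, 863.8, 711.2 and 816.5 normalized counts in 4T1-Sca1+ and 263.6, 241.3, 271.6 and 267.1 in 4T1-Sca1- libraries. The lowest 4T1-Sca1+ library, replicate 3, was still far above the highest 4T1-Sca1- library. Nqo1 was 3.133-fold higher in 4T1-Sca1+ cells (95% confidence interval 2.816 to 3.486), or 1.65 ± 0.07 on the log2 scale (SE, adjusted p 3.72e-12). Nqo1 was the only one of the 10 genes in the SCA1-positive signature that the study selected from these same libraries, so its direction is not independent evidence.

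Srxn1, which encodes sulfiredoxin, the enzyme that repairs overoxidized peroxiredoxins (ENSMUSG00000032802, chromosome 2, 152105516 to 152111376, plus strand), had 1607, 1678, 1510 and 1613 normalized counts in 4T1-Sca1+ and 781.2, 796.7, 741.4 and 752.2 in 4T1-Sca1- libraries. The groups were clearly apart, and the spread within each was narrow. Srxn1 rose 2.104-fold (95% confidence interval 1.955 to 2.265), or by 1.07 ± 0.05 on the log2 scale (SE, adjusted p 8.31e-12).

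Txnrd1, the cytosolic thioredoxin reductase, which uses NADPH to regenerate thioredoxin (ENSMUSG00000020250, chromosome 10, 82833951 to 82897712, plus strand), had 8411, 8513, 7596 and 8041 normalized counts in 4T1-Sca1+ and 7293, 7106, 7355 and 7185 in 4T1-Sca1- libraries. The change was small beside those of Nqo1 and Srxn1, although the groups did not overlap. It amounted to 0.18 ± 0.04 on the log2 scale (SE, adjusted p 0.00178), or 1.135-fold.

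Hmox1, which encodes heme oxygenase 1 and is under strong repression by BACH1 in many cells (ENSMUSG00000005413, chromosome 8, 75093621 to 75100589, plus strand), moved the other way. It had 461.6, 432.9, 425.9 and 421.0 normalized counts in 4T1-Sca1+ and 522.4, 572.9, 521.0 and 585.6 in 4T1-Sca1- libraries. All 4T1-Sca1+ libraries lay below all 4T1-Sca1- libraries. The level in 4T1-Sca1+ cells was 0.7986 of that in 4T1-Sca1- cells, or -0.32 ± 0.06 on the log2 scale (SE, adjusted p 0.000234). Hmox1 was the only called member that fell.

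Prdx1 and Txn1, the abundant peroxiredoxin and thioredoxin that SRXN1 and TXNRD1 serve, were not called. Prdx1 (ENSMUSG00000028691, chromosome 4, 116685544 to 116700822, plus strand) had 6268, 6504, 5154 and 6179 normalized counts in 4T1-Sca1+ and 6003, 5494, 6005 and 5897 in 4T1-Sca1- libraries. Its groups overlapped through 4T1-Sca1+ replicate 3, with a log2 fold change of 0.06 (95% confidence interval -0.07 to 0.19) at an adjusted p of 0.444. Without that library the log2 fold change came to 0.12 (adjusted p 0.0156), and with offsets corrected for GC content to 0.16 (adjusted p 0.000942). Prdx1 had the lowest transcript GC content of the 10 genes, 42.3%. Txn1 (ENSMUSG00000028367, chromosome 4, 57943373 to 57956411, minus strand) had 7853, 7558, 7312 and 8105 normalized counts in 4T1-Sca1+ and 7800, 7914, 8067 and 7923 in 4T1-Sca1- libraries. The 4T1-Sca1- values of Txn1 fell inside the range of the 4T1-Sca1+ values. Its log2 fold change was -0.03 (95% confidence interval -0.12 to 0.06, adjusted p 0.601), and its sign turned under other scalings. The intervals of both genes leave room for a change of at most 1.137-fold upward and 0.9214-fold downward in this test.

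4T1-Sca1+ replicate 3 stood apart from the rest of its group in these genes. On the log2 scale it lay below the mean of the other 3 libraries by -0.30 in Prdx1, -0.25 in Nqo1 and -0.19 in Nfe2l2, and above it by 0.11 in Sqstm1 and 0.07 in Keap1. Txnrd1 (-0.14), Srxn1 (-0.12), Txn1 (-0.11) and Hmox1 (-0.05) were also below it and Bach1 (0.07) above it. The values followed the GC content of the 10 genes only in part. Prdx1, the lowest value, had the lowest GC content (42.3%). Sqstm1 (54.0%) and Keap1 (58.0%), both above the mean, had the highest. Bach1 (46.7%) nevertheless lay above the mean, and Srxn1 and Hmox1 (both 53.3%) lay below it. Over all genes a shift with GC content was seen. In that library the median difference from the other 3 was -0.14 in the low-GC tercile (transcript GC up to 46.7%) and 0.13 in the high-GC tercile (above 53.1%), over 11616 genes. 4T1-Sca1- replicate 2 had a smaller shift of the same kind, -0.08 and 0.09. Without 4T1-Sca1+ replicate 3, 8 members were called higher in place of 7, Prdx1 being the addition.

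**Figure D3:**
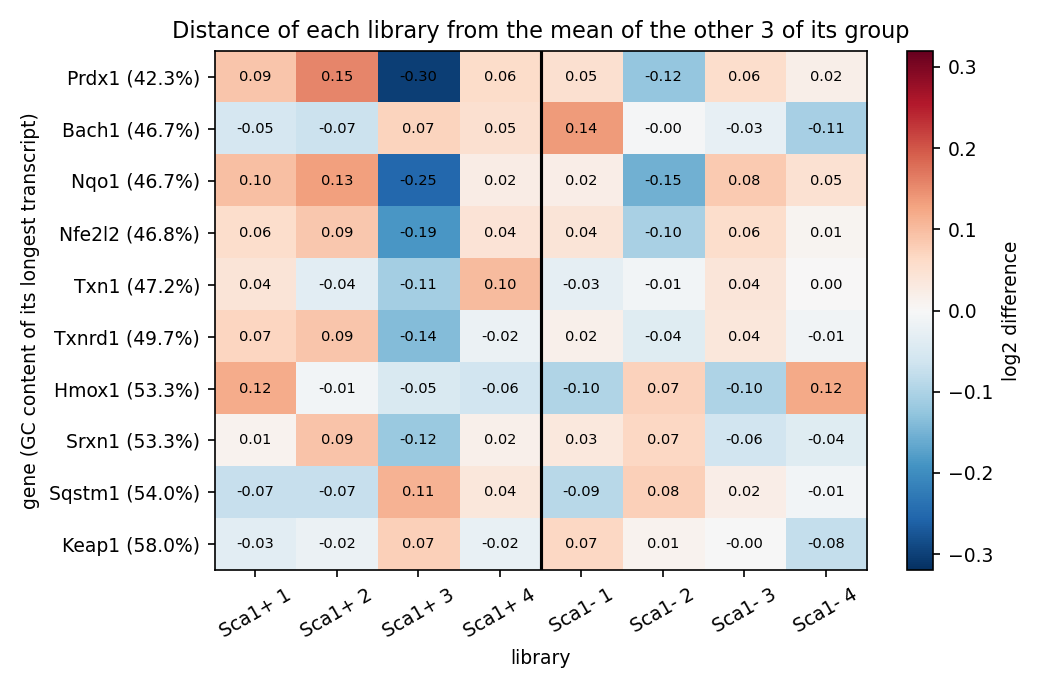
Log2 difference of each library (columns) from the mean of the other 3 libraries of its group, for the 10 genes (rows) ordered by the GC content of the longest transcript. In the column of 4T1-Sca1+ replicate 3, values lie between -0.30 (Prdx1) and 0.11 (Sqstm1). They follow the order of GC content only in part, with Bach1 at 0.07 and Srxn1 at -0.12 out of order.

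Levels were compared between genes only per length, as TMM-scaled CPM (counts scaled to library size) per kilobase of the principal transcript. On this scale the thioredoxin and p62 transcripts led, with mean levels of 484.9 for Txn1 and 323.2 for Sqstm1 in 4T1-Sca1+ cells and 494.2 and 271.8 in 4T1-Sca1- cells. Prdx1 (173.7 and 167.1) and Txnrd1 (152.4 and 134.3) followed, and their ranges overlapped in 4T1-Sca1+ cells, at 147.9 to 187.5 and 141.7 to 159.5. With the union of all exons as the length they were apart, at 111.5 to 141.4 and 70.59 to 79.48. The enzymes that recycle electrons or repair peroxiredoxins were thus less abundant as mRNA than the proteins they serve. Nfe2l2 was next, at a level of 70.45 in 4T1-Sca1+ and 40.15 in 4T1-Sca1- cells. Keap1 was at 38.08 and 30.64, and in every library Nfe2l2 exceeded Keap1. The order below them differed between the fractions. In 4T1-Sca1- cells Hmox1 (22.99) lay above Srxn1 (17.89) and Nqo1 (11.01), with ranges that did not overlap. In 4T1-Sca1+ cells Srxn1 (37.67) and Nqo1 (34.47) lay above Hmox1 (18.35), next to Keap1. There the ranges of Keap1 and Srxn1 overlapped, as did those of Srxn1 and Nqo1. With the union of all exons as the length the mean of Keap1 came below those of Srxn1 and Nqo1. On that length the ranges of Keap1 (28.82 to 30.48) and Nqo1 (30.15 to 36.8) overlapped. Bach1 was the lowest of the 10 in both fractions, at 6.596 and 5.574.

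**Figure D4:**
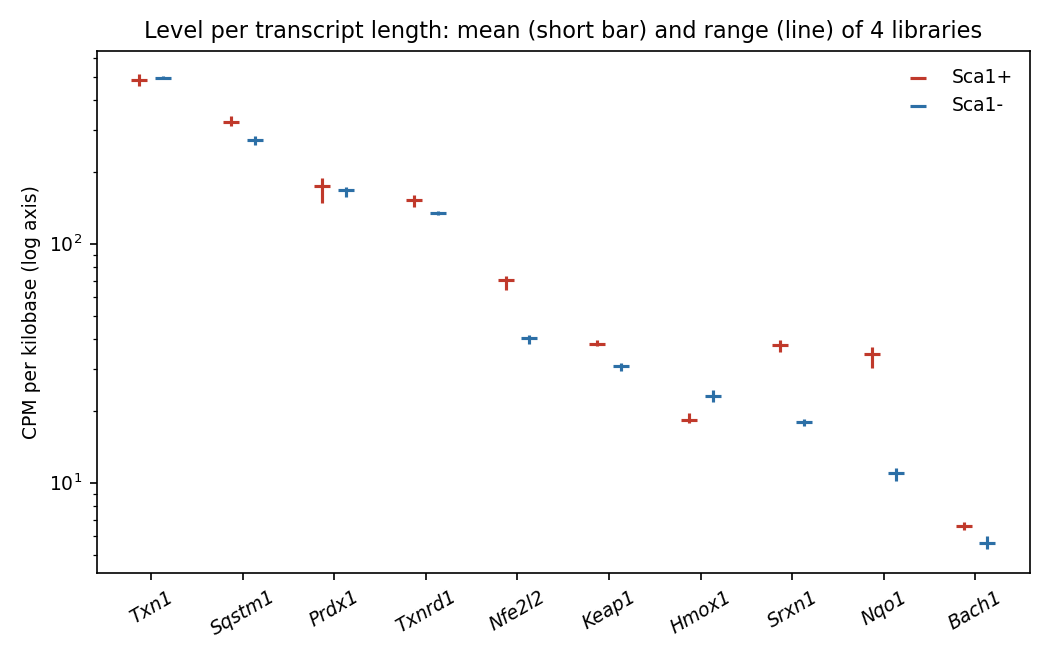
CPM per kilobase of principal transcript (y axis, log scale) of the 10 genes in 4T1-Sca1+ (red) and 4T1-Sca1- (blue) cells, with the mean as a short bar and the range of 4 libraries as a line. Hmox1 lies above Srxn1 and Nqo1 in 4T1-Sca1- cells (22.99 against 17.89 and 11.01) and below them in 4T1-Sca1+ cells (18.35 against 37.67 and 34.47).

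Ratios of genes within a library do not depend on the scaling between libraries and are given here as a description, without a test. The log2 ratio of Nfe2l2 to Keap1, per length, was 0.953, 0.965, 0.690 and 0.935 in 4T1-Sca1+ and 0.370, 0.302, 0.433 and 0.454 in 4T1-Sca1- libraries. The mRNA of the factor thus exceeded that of its inhibitor 1.848-fold in 4T1-Sca1+ and 1.31-fold in 4T1-Sca1- cells at this length, with no overlap. Against Bach1, Nfe2l2 was 10.67-fold in 4T1-Sca1+ and 7.207-fold in 4T1-Sca1- cells, again with no overlap. The ratio of Sqstm1 to Keap1 was 8.482 and 8.872, with overlapping groups. The ratio of Srxn1 to its substrate gene Prdx1 was 0.2176 in 4T1-Sca1+ and 0.1071 in 4T1-Sca1- cells, and that of Txnrd1 to Txn1 was 0.3143 and 0.2717, both without overlap. The size of such a ratio depends on the length used. With the union of all exons it was 0.1566 and 0.1354 for Txnrd1 to Txn1, 0.2878 and 0.1417 for Srxn1 to Prdx1, and 1.564 and 1.109 for Nfe2l2 to Keap1, whereas the factor between the fractions does not depend on length. In these systems the enzyme that restores the carrier rose and the carrier itself was not called. Hmox1 to Bach1 went the other way, at 2.781 in 4T1-Sca1+ and 4.123 in 4T1-Sca1- cells.

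The genes most alike Nqo1 and Nfe2l2 over the 8 libraries were taken by Pearson's r of log2 CPM among 9369 genes, as a description. For Nqo1 these were Arhgap18 (r = 0.9993), Nfe2l2 (0.9984), Cat (0.9979), Serinc3 (0.9977) and Pcbp2 (0.9972). For Nfe2l2 they were Arhgap18 (0.9994), Mmp3 (0.9992), Nqo1 (0.9984), Eml5 (0.9969) and Tslp (0.9961). Nfe2l2 and Nqo1 appeared on the list of the other. The difference between the 2 groups of 4 libraries makes up most of each r, and 4T1-Sca1+ replicate 3 was low in both genes, so such an r says little beyond the group difference.

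The surrounding pathway was examined with 8 lists that hold 110 further genes, of which 106 were tested. Of these, 47 were higher, 21 were lower and 38 were not called, with a median log2 fold change of 0.12. The called share, 64.2%, was near the 61.5% of all genes tested, with 44.3% called higher against 31.3%. With library totals alone as the scaling the split was 53 higher and 14 lower. The values below are log2 fold changes with adjusted p-values by edgeR, and 9 of the 106 genes (Txnip, Ephx1, Aox1, Blvrb, Sod3, Slc7a11, Gstm1, Mgst1 and Idh1) belong to signatures that the study chose on these same libraries, so their directions are not independent evidence.

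The list of NRF2 partners, related factors and ligase parts was split. Of 17 tested, 4 were higher and 5 lower, with a median of -0.03. The called share of 52.9% was below the 61.5% of all genes tested, as was the 23.5% called higher against 31.3%. The small MAF proteins, which pair with NRF2 or BACH1 on DNA, did not move together. Mafg rose by 0.49 (adjusted p 6.14e-07) and Maff by 0.29 (0.000197), whereas Mafk fell by 0.27 (0.000144). Among the parts of the KEAP1 ligase, Cul3, the scaffold, fell by 0.31 (adjusted p 0.00028) and Cand1, which exchanges its substrate adaptors, fell by 0.36 (1.31e-05). Rbx1, the ring subunit, rose by 0.19 (adjusted p 0.0127), with overlapping groups. With GC-corrected offsets the values were 0.13 for Maff, -0.18 for Cul3 and 0.29 for Rbx1.

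Glutathione genes showed the highest median of the 8 lists, 0.46, with 7 of 11 higher and 1 lower (72.7% called). Gstm1, a glutathione transferase, had normalized counts of 397.7 ± 33.13 in 4T1-Sca1+ and 33.65 ± 5.55 in 4T1-Sca1- cells (SD, n = 4 each), and rose by 3.57 ± 0.12 (SE, adjusted p 6.04e-14). Gsta4, another transferase, which clears lipid aldehydes, was at 1503 ± 131.4 and 238.0 ± 22.37, a log2 fold change of 2.68 (adjusted p 2.03e-14). Transferases belong to gene families whose members can share reads, and how such reads were counted is not given in the sources used here. Slc7a11, the cystine importer, was at 1755 ± 110.9 and 310.6 ± 3.728 and rose by 2.51 (adjusted p 1.87e-15). The subunits of glutamate-cysteine ligase, Gclc (0.46, adjusted p 1.71e-06) and Gclm (0.60, 1.54e-07), and glutathione reductase Gsr (0.33, 2.16e-06) were also called higher. These 3 were named after their values were seen. Abcc1, an exporter of glutathione conjugates, fell by 0.24 (adjusted p 0.000142).

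The list of quinone and carbonyl reductases, which also holds other detoxifying enzymes, had 11 of 16 higher and 3 lower (87.5% called), with a median of 0.44. Nqo2, the nearest relative of Nqo1 on it, was not called (0.17, adjusted p 0.108), with overlapping groups. Ephx1, an epoxide hydrolase, rose by 2.62 (224.1 ± 2.813 against 36.64 ± 8.83 normalized counts, adjusted p 9.69e-12). Aox1, aldehyde oxidase, rose by 1.90 (739.2 ± 15.08 against 199.2 ± 5.015, adjusted p 5.46e-14), and Adh7, a retinol and alcohol dehydrogenase, rose by 1.29 (259.4 ± 45.07 against 107.4 ± 12.62, adjusted p 1.3e-07). Cryz fell by 0.22 (adjusted p 0.0347) and Akr1b8 by 0.19 (0.0243), both with overlapping groups. Neither call held throughout. Cryz was at -0.20 (adjusted p 0.0834) without 4T1-Sca1+ replicate 1, -0.21 (0.0766) without 4T1-Sca1+ replicate 2 and -0.15 (0.142) without 4T1-Sca1- replicate 2. Akr1b8 was at -0.16 (adjusted p 0.0817) without 4T1-Sca1+ replicate 4 and -0.12 (0.123) without 4T1-Sca1- replicate 3.

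On the thioredoxin and peroxiredoxin list 6 of 22 genes were higher and 7 lower (59.1% called), with a median of -0.03. Txnip, which binds and inhibits thioredoxin, fell by 1.18 (294.3 ± 33.1 against 671.9 ± 64.5 normalized counts, adjusted p 1.67e-09), the largest fall on the 8 lists. Prdx5 fell by 0.56 (adjusted p 1.48e-08) and Glrx3 by 0.45 (2.88e-05). Sesn3, a sestrin, rose by 0.90 (adjusted p 6.64e-10), Msrb2, a methionine sulfoxide reductase, by 0.53 (0.000419), and Txn2, the mitochondrial thioredoxin, by 0.30 (2.44e-05).

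Around Hmox1, 8 of 14 genes of heme turnover and ferritin were higher and 3 lower (78.6% called), with a median of 0.19. Blvrb, a biliverdin reductase, rose by 2.34 (253.6 ± 14.56 against 50.72 ± 3.584 normalized counts, adjusted p 2.8e-12). Blvra, the other biliverdin reductase, rose by only 0.41 (adjusted p 9.8e-05). The ferritin light chain Ftl1 rose by 0.75 (adjusted p 3.71e-09) and the heme transporter Slc48a1 by 0.70 (9.56e-10). Ferritin genes have many processed copies in the genome, so the count of Ftl1 is uncertain to that extent. Hmox2, the constitutive heme oxygenase, fell by 0.16 (adjusted p 0.0189), Cpox, an enzyme of heme synthesis, by 0.20 (0.00392) and Pgrmc1, a heme-binding membrane protein, by 0.21 (0.00424), which was -0.14 with GC-corrected offsets. The call of Hmox2 was lost without 4T1-Sca1+ replicate 4 (-0.14, adjusted p 0.0579) and without 4T1-Sca1- replicate 3 (-0.15, adjusted p 0.0509). The fall of Hmox1 therefore stood beside lower Hmox2 and higher Blvrb, Blvra and ferritin. Haemoglobin genes were not among those counted, and the erythroid markers Klf1 and Alas2 summed to 0.914 to 9.861 normalized counts in 4T1-Sca1+ and 2.865 to 13.35 in 4T1-Sca1- libraries.

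Of 7 tested superoxide and peroxide enzymes, 2 were higher and 2 lower (57.1% called, below the share of all genes tested), with a median near 0 (0.003). Sod3, the extracellular superoxide dismutase, rose by 3.41 (98.25 ± 11.3 against 9.264 ± 3.229 normalized counts, adjusted p 2.12e-10) and Cat, catalase, by 0.45 (9.43e-08). Sod3 had 5 to 11 raw counts in the 4T1-Sca1- libraries, passed the filter on low counts through the 4T1-Sca1+ libraries (93 to 122) and had no value when 10 counts were required in every library. Gpx8 fell by 0.50 (adjusted p 2.59e-06) and Gpx4, which protects membranes from lipid peroxidation, by 0.33 (0.000148), and was at -0.56 with GC-corrected offsets. The NRF2 target Gpx2 was too low to be tested, at 63 counts in the 4 4T1-Sca1+ and 4 counts in the 4 4T1-Sca1- libraries. Of 6 NADPH genes, 3 were higher and none lower. That called share of 50% was again below the 61.5% called in either direction, but above the 31.3% called higher. Idh1, the cytosolic isocitrate dehydrogenase, rose by 1.92 (adjusted p 5.27e-14), Pgd by 0.33 (1.48e-06) and Tkt, a transketolase, by 0.19 (0.000772), which was 0.12 with GC-corrected offsets. Among 13 autophagy partners of Sqstm1, 6 were higher and none lower (46.2% called, which also lay between 31.3% and 61.5%). They were led by Calcoco1 (0.92, adjusted p 2.17e-07), Gabarapl1 (0.74, adjusted p 7.41e-09) and Map1lc3a (0.68, adjusted p 3.9e-05). The value of Map1lc3a was 0.36 with GC-corrected offsets.

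**Figure D5:**
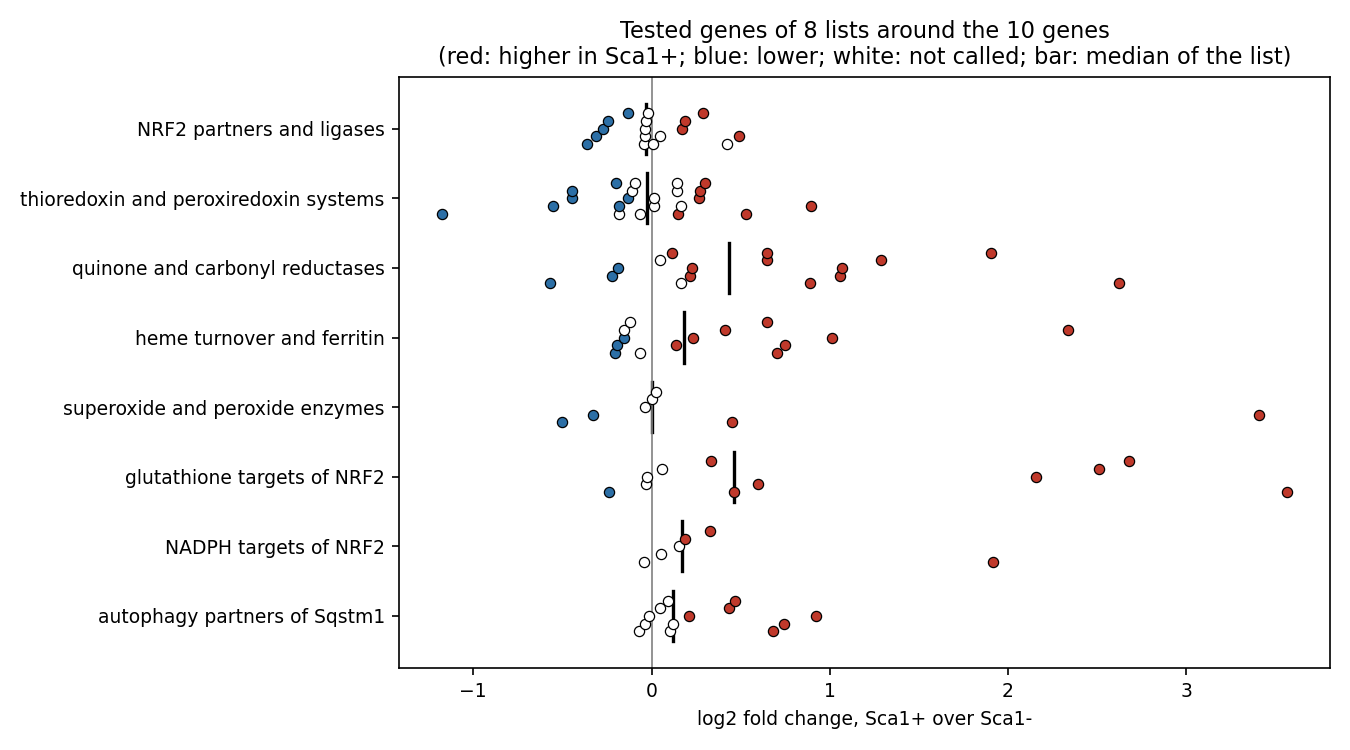
Log2 fold change of 4T1-Sca1+ over 4T1-Sca1- cells (x axis) of the 106 tested genes of 8 lists around NRF2 (rows), red where higher, blue where lower and white where not called, with a bar at each median. The glutathione and reductase lists have medians of 0.46 and 0.44, while the partners of NRF2 and the thioredoxin list are split around 0.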

How the data were processed

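RNA was sequenced in 4 libraries of 4T1-Sca1+ and 4 of 4T1-Sca1- cells (TruSeq kit, which does not mark strand). The authors deposited raw counts per Ensembl gene and a normalized signal table, in which each library's counts had been divided by a single factor; those values are printed as normalized counts. The submitters' processing notes name cutadapt 1.16, STAR 2.5.3a and GRCm38/mm10; the counting tool, annotation and use of strand are not given in the sources used here. Symbols, positions and transcript GC came from GENCODE M21 on GRCm38 (16202 of 16341 genes matched), promoters from RefSeq on GRCm38.p6.

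Deposited counts were tested with edgeR 4.0.16 in R 4.3.3: filterByExpr (11717 genes tested, 4624 not), TMM, a two-sided quasi-likelihood test without covariates, Benjamini-Hochberg over all tested genes, called at an adjusted p under 0.05. Errors of log2 fold changes are standard errors. The libraries carried no molecular identifiers, so the precision set by depth (total counts in the report) covers counting error alone. Before use, counts with a known set of changed genes were simulated. They served to check the main fit, DESeq2 size factors, the replicate block, GC-corrected offsets, DESeq2 and limma-voom. The other alternatives were not checked in this way, and the simulated counts held no shift with GC content. DESeq2 1.42.0, limma 3.58.1 and the other alternatives are in the closing section.

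Every one of the 10 genes is given. From each wider list the text names up to 3 called genes per direction with the largest change and a mean normalized count of at least 50, and for Nqo1 and Nfe2l2 the 5 most correlated genes with a mean of at least 100. Gclc, Gclm, Gsr, Gpx2, Blvra and Nqo2 were added after their values were seen. The 10 genes and all lists were chosen with earlier results of these data known.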

Additional observations from a re-analysis of the deposited data

Results flagged for a closer look

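Within each group of 4 libraries, a value was flagged when the gap between it and its nearest neighbour exceeded Dixon's critical share of the range. Of 32 such tests on the 10 genes and their ratios, 3 were flagged, and chance flags about 1 in 20. All 3 concerned 4T1-Sca1+ replicate 3. Keap1 had 2172 normalized counts there against 2041 to 2059 in the other 3 libraries. The log2 ratio of Nfe2l2 to Keap1 was 0.69 there against 0.935 to 0.965 in the others. The log2 ratio of Srxn1 to Prdx1 was -2.065 there against -2.258 to -2.231. That library also had the shift with GC content described above, whose part in these values was not tested.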

How the results depend on the processing

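The direction and call of the 8 called members held under each of the 18 alternatives that refit single genes: 3 other scalings, 2 other filters, DESeq2, limma-voom, limma on the deposited signal (as log2 of the value + 1), the replicate block, GC-corrected offsets and leaving out each of the 8 libraries. Their log2 fold changes ran from 0.78 to 0.86 for Nfe2l2, 0.14 to 0.36 for Keap1, 0.21 to 0.29 for Bach1, 0.18 to 0.29 for Sqstm1, 1.61 to 1.70 for Nqo1, -0.38 to -0.28 for Hmox1, 0.16 to 0.23 for Txnrd1 and 1.02 to 1.12 for Srxn1. Txn1, not called, turned to 0.0157 with library totals alone, 0.002 with upper-quartile scaling and 0.0207 when offsets were corrected for GC content. Prdx1 became called under that correction and without 4T1-Sca1+ replicate 3, as given above. Library totals alone ended the calls of Akr1b8, Cryz and Hmox2, and upper-quartile scaling, DESeq2 and the GC correction each ended that of Cryz. The cause was not tested.

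At an adjusted p under 0.01, 13 wider pathway genes were lower in place of 21. When called genes also had to change at least 2-fold, 612 genes were higher and 103 lower, 2 members were higher and 0 lower, 0 regulators and 2 targets were called, and 13 wider genes were higher and 1 lower. These thresholds remove smaller changes by construction. Leaving out single libraries gave 7 to 8 members higher, 1 lower, 43 to 48 wider genes higher and 15 to 20 lower.

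The labels number the replicates 1 to 4 in both groups, but the deviations of same-numbered libraries from their group means correlated at only 0.096, -0.15, -0.034 and -0.0011, which gives no pairing. With the replicate block 7 members were higher and 1 lower, and 3605 genes were higher and 3452 lower, in place of 3668 and 3538.

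Depth did not limit the members, whose raw counts were high in every library, but it limits genes such as Gpx2. The labels do not separate sorts from repeat libraries, and the handling of shared reads is not given in the sources used here.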
